A study of Mus musculus with 4 samples.

Results

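The genes described here encode the enzymes that cut, protect and cross-link the extracellular matrix: the matrix metalloproteinases (Mmp), their tissue inhibitors (Timp), the Adamts metalloproteinases and the related Adamtsl proteins, and the lysyl oxidases (Lox and Loxl). Members were matched by symbol, which gave 56 of the 24138 genes in the deposited table: 23 Mmp, 4 Timp, 19 Adamts, 5 Adamtsl and 5 Lox genes. Their transcripts were measured by bulk RNA sequencing of poly(A)-enriched libraries of liver from 4 C57BL/6J mice, all male and 18 weeks old. Each had been fed the FAT-MASH diet, a model of metabolic dysfunction-associated steatohepatitis (MASH), and treated with resolvin D1 (RvD1), a lipid mediator of the resolution of inflammation. Livers of mice given the diet without RvD1, or a control diet, were not analysed here. No effect of the diet or of RvD1 can therefore be read from the values, and no test between groups was made. Levels are in FPKM (fragments scaled by transcript length and by library depth), which can be compared between genes, and errors are SDs over the livers (n = 4). The labels give neither dose nor timing of RvD1, and they do not say whether the animals shared a litter or a cage.

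Fibrosis of the liver is a balance of matrix laid down and matrix removed. Metalloproteinases are made as inactive precursors and are switched on by proteolysis, and the Timp proteins bind the active enzymes and block them. The Adamts enzymes cleave proteoglycans, procollagens and von Willebrand factor, the Adamtsl proteins lack a protease domain and bind fibrillin-rich matrix, and the lysyl oxidases cross-link collagen and elastin and so make a scar harder to dissolve. Hepatic stellate cells, portal fibroblasts, macrophages, neutrophils and bile duct cells are each known sources of some of these transcripts. In bulk tissue fewer cells of a type and less RNA per cell cannot be told apart, and an mRNA level says nothing of the activation of an enzyme.

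The estimated depth was between 18.8 and 20.1 M fragments (M, mega) per library, too rough an estimate to order the livers. Liver 4 had the fewest genes above 0 (14785, against 15073 to 15317 in the other livers). Of 9 hepatocyte markers, 7 were above 0 in all livers, with summed levels between 25377 and 32967 FPKM. Alb was listed at 0 in all 4 livers and Serpina1c in livers 3 and 4. Both are abundant in hepatocytes, so an entry of 0 in this table may be a failed estimate, and such members are described below only as listed at 0.

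A minority of the genes was expressed, here meaning a mean of at least 1 FPKM. This held for 20 of the 56 members (35.7%), against 43.7% of all genes in the table. The share differed by class, with 7 of 23 Mmp, 3 of 4 Timp, 5 of 19 Adamts, 2 of 5 Adamtsl and 3 of 5 Lox genes. A value above 0 in all 4 livers was found for 41 members, where the share over all genes was 58.1%. A further 10 members were above 0 in some livers, and 5 members (Mmp1a, Mmp1b, Mmp10, Adamts8 and Adamts20) were listed at 0 in every liver, compared with 32.2% of all genes. The threshold of 1 FPKM fell between Loxl3, with a mean of 1.12 ± 0.231 FPKM, and Adamts5, with 0.945 ± 0.316 FPKM.

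**Figure D1:**
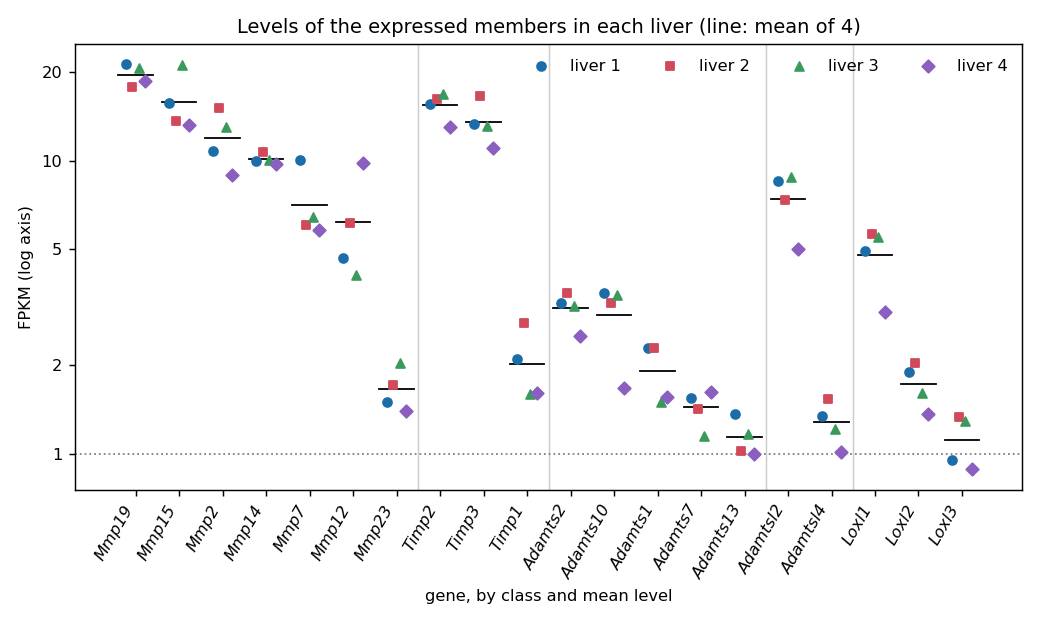
FPKM of the 20 expressed members (log axis), grouped by class, with a symbol for each of the 4 livers and a line at the mean; the dotted line marks 1 FPKM. Mmp19, Mmp15, Timp2 and Timp3 lay above 10 FPKM in all livers, while 7 members had means below 2 FPKM.

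Mmp19 (chromosome 10, 128790910 to 128804370, mm10), a secreted protease that cleaves basement membrane proteins, had the highest mean of the 56 genes. The livers held 21.3, 17.8, 20.7 and 18.6 FPKM (livers 1 to 4), a mean of 19.6 ± 1.67 FPKM. The livers stayed within a 1.20-fold range. Second was Mmp15 (chromosome 8, 95352337 to 95374293), a protease anchored in the plasma membrane, at 15.7, 13.6, 21.1 and 13.2 FPKM. Liver 3 stood above the other livers for Mmp15, and its mean was 15.9 ± 3.64 FPKM. Mmp19 exceeded Mmp15 in 3 of 4 livers, so the order of these neighbours was not the same in every animal.

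The gelatinase Mmp2, the membrane-anchored protease Mmp14 and the inhibitor Timp2 are known to work as a unit, in which Mmp14 at the cell surface holds Timp2 as a receptor for the Mmp2 precursor and a free Mmp14 cleaves it. Transcripts of all 3 were present in every liver. Mmp14 (chromosome 14, 54431604 to 54441258) was at 9.95, 10.7, 10.1 and 9.75 FPKM, a mean of 10.1 ± 0.422 FPKM. Its SD on the log2(FPKM + 1) scale, 0.05, was the lowest of the 20 expressed members, against a median of 0.16 over all expressed genes. Mmp2 (chromosome 8, 92827328 to 92853420) ranged more widely, at 10.8, 15.1, 13.0 and 8.93 FPKM, a mean of 11.9 ± 2.68 FPKM. Mmp2 was thus highest in liver 2 and lowest in liver 4. Timp2 (chromosome 11, 118301061 to 118355411) was at 15.7, 16.2, 16.9 and 13.1 FPKM, a mean of 15.5 ± 1.68 FPKM. The ratio of Timp2 to Mmp14 transcripts was 1.57, 1.51, 1.68 and 1.34 in livers 1 to 4, so the inhibitor transcript was the more abundant in each animal.

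The other gelatinase, Mmp9, which neutrophils and macrophages carry, was low, at 0.112, 0.280, 0.0749 and 0.0415 FPKM. These values correspond to about 6.7, 16.1, 4.4 and 2.3 fragments, so the order of the livers rests on few molecules. Of the mouse collagenases Mmp13 was also low, and Mmp1a and Mmp1b were listed at 0 in every liver. Mmp13, the main interstitial collagenase of the mouse, was at 0.289, 1.04, 0.182 and 0.475 FPKM, or about 14.3, 49.5, 8.8 and 22.1 fragments. Liver 2 was the highest for Mmp13, as it was for Mmp9. The neutrophil collagenase Mmp8 was at 0.129 FPKM in liver 2 and 0.0653 FPKM in liver 3 and was listed at 0 in livers 1 and 4. Of the stromelysins, which cleave proteoglycans and activate other Mmp precursors, Mmp11 was at 0.455, 0.680, 1.02 and 0.614 FPKM, Mmp3 was above 0 in livers 1 and 4 only, and Mmp10 was listed at 0 throughout.

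Neutrophil markers were low in these livers, and 6 of 9 were highest in liver 2 (23.96% of all genes above 0 in every liver and 22.0% of expressed genes were, and 7 of the 9 markers were below 1 FPKM), as Mmp8, Mmp9 and Mmp13 were. Of the others, Csf3r and Cxcr2 were highest in liver 3 and Mpo in liver 4. The summed level of the 9 markers found in the table was 12.2, 21.0, 13.0 and 9.54 FPKM in livers 1 to 4, and 2 of the 9 (S100a8 and S100a9) were expressed, both with their highest value in liver 2. None of the 9 was listed at 0 in all livers. Also highest in liver 2 were 6 of 8 endothelial, 6 of 11 stellate cell and 5 of 8 portal fibroblast and mesothelial markers. Of other lists it held for 3 of 9 macrophage, 3 of 10 lymphocyte, 3 of 7 cholangiocyte and 2 of 5 smooth muscle markers. It held for 0 of 9 hepatocyte and 0 of 5 adipocyte markers. Among members above 0 in every liver, 20 of 41 were highest in liver 2. The part of neutrophils in the levels of Mmp8, Mmp9 and Mmp13 was not tested.

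Mmp12, the elastase of macrophages (chromosome 9, 7347374 to 7360461), varied most between animals among the expressed members. It was at 4.66, 6.14, 4.06 and 9.82 FPKM in livers 1 to 4, which spans 2.42-fold, with an SD of 0.48 on the log2(FPKM + 1) scale. Liver 4 was the highest and liver 3 the lowest. About 630 fragments stood behind the value in liver 4 and about 270 behind that in liver 3. Of the 9 macrophage and Kupffer cell markers, 8 were expressed, and 6 of these 8 were highest in liver 4 while 6 were lowest in liver 3, where the shares over all expressed genes were 33.3% and 31.4%. Their summed level was 118, 145, 109 and 163 FPKM in livers 1 to 4. The part of macrophage number in the level of Mmp12 was not tested.

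Mmp7, or matrilysin, is a small protease of epithelia that is made by bile duct cells. It was at 10.1, 6.05, 6.42 and 5.78 FPKM in livers 1 to 4, a mean of 7.08 ± 2.02 FPKM. Liver 1 lay apart from the other 3, which stayed within 0.64 FPKM of each other. The gap between liver 1 and the next liver was 0.817 of the whole range on the log2 scale, just under the limit that Dixon's outlier test sets at 95% for a group of 4. The short transcript left about 94.5 to 175.9 fragments per liver. The 7 cholangiocyte markers summed to 235, 207, 194 and 214 FPKM, a sum made up mostly of Spp1 (214, 182, 171 and 195 FPKM). Of the 5 expressed ones 2 (Krt19 and Spp1) were highest and 2 (Krt7 and Epcam) were lowest in liver 1. Without Spp1 the sum was 21.2, 24.3, 22.4 and 18.5 FPKM, highest in liver 2. Their part in the level of Mmp7 was not tested. The span given for Mmp7 (chromosome 9, 7628231 to 7699416) is also that of Mmp20, the enamel protease, which was above 0 in liver 1 only, at about 1.0 fragment.

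Mmp7, Mmp12 and Mmp13 belong to a cluster of 10 Mmp genes that lie side by side on chromosome 9. Mmp7 and Mmp12 were expressed. Mmp13 and Mmp27 had means of 0.496 ± 0.380 and 0.424 ± 0.193 FPKM, Mmp3, Mmp8 and Mmp20 were listed at 0 in some livers and at no more than 0.150 FPKM in the others, and Mmp1a, Mmp1b and Mmp10 were listed at 0. Start sites from RefSeq (GRCm38.p6) were available for 37 of the 56 members, including all 10 genes of the cluster, each as a window of 250 bases before to 50 bases after the start. The windows were searched on both strands for TGACTCA, the element bound by the Fos and Jun factors of AP-1, and on the strand of the gene for TATAAA, the TATA box. The AP-1 element was found in 7 of the 10 genes of the cluster and in 0 of the 27 other members with a window, against 5.20% of 32851 windows of all genes. TATAAA was found in 8 genes of the cluster and in 3 of the 27 others, against 8.32% of all windows. On either strand it was found in 9 genes of the cluster and in 3 of the others, against 13.6% of all windows. The counts are of genes with an element in any of their windows, whereas the shares are of windows. The 10 genes of the cluster had 12 windows. The stretches from 110 bases before to 10 bases after the start are shown for the 2 expressed genes of the cluster, for Mmp13, for Mmp1a and Mmp10, which were listed at 0, and for Mmp8, to show where the elements lie in genes that hold both and in a gene that does not. Capitals mark the AP-1 element and TATAAA.
Mmp7: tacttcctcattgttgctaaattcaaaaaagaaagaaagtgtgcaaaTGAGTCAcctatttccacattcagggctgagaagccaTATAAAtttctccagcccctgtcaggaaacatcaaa
Mmp12: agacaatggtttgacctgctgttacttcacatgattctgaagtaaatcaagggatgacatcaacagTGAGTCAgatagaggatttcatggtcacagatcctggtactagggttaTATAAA
Mmp13: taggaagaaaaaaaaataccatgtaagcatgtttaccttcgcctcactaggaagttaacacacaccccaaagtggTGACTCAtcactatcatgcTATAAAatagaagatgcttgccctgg
Mmp1a: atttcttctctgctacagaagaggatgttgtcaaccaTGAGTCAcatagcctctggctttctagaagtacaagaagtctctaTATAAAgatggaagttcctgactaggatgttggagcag
Mmp10: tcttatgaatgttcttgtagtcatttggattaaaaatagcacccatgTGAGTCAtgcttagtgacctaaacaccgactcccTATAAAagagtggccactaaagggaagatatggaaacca
Mmp8: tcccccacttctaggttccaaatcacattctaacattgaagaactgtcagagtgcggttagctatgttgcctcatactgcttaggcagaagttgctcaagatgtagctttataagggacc

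The stretches lie on the plus strand of chromosome 9, at chr9:7691980-7692099 for Mmp7, chr9:7347264-7347383 for Mmp12, chr9:7272404-7272523 for Mmp13, chr9:7464031-7464150 for Mmp1a, chr9:7502232-7502351 for Mmp10 and chr9:7558319-7558438 for Mmp8. In Mmp7 the AP-1 element began at position -63 and TATAAA at -26 relative to the start, which is counted as 1, in Mmp10 at -63 and -29, and in Mmp1a at -73 and -28. In Mmp13 they began at -35 and -16, and in Mmp12 at -44 and 5, so that in Mmp12 TATAAA lay after the start. Both elements were thus present in Mmp7 and Mmp12 and also in Mmp13, which had a mean of 0.496 FPKM. Entries of 0, as for Mmp1a and Mmp10, may be failed estimates and do not place these genes in the order of levels. RefSeq gives a further start for both Mmp7 and Mmp12, and neither further window held an element. The Mmp8 stretch held no AP-1 element, and TATAAA was absent from the strand of the gene but present on the other. A match of letters is not evidence of binding. The genes of the cluster also shared a scarcity of CpG, with a median ratio of observed to expected CpG of 0.136, against 0.712 in the 27 other members. Over all genes in the table with a window the median was 0.615, at 0.313 in genes below the threshold of expression and 0.797 in expressed genes. The values of 8 of the 10 genes of the cluster were below the threshold. Among these are Mmp1a, Mmp1b and Mmp10, whose entries of 0 may be failed estimates.

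**Figure D2:**
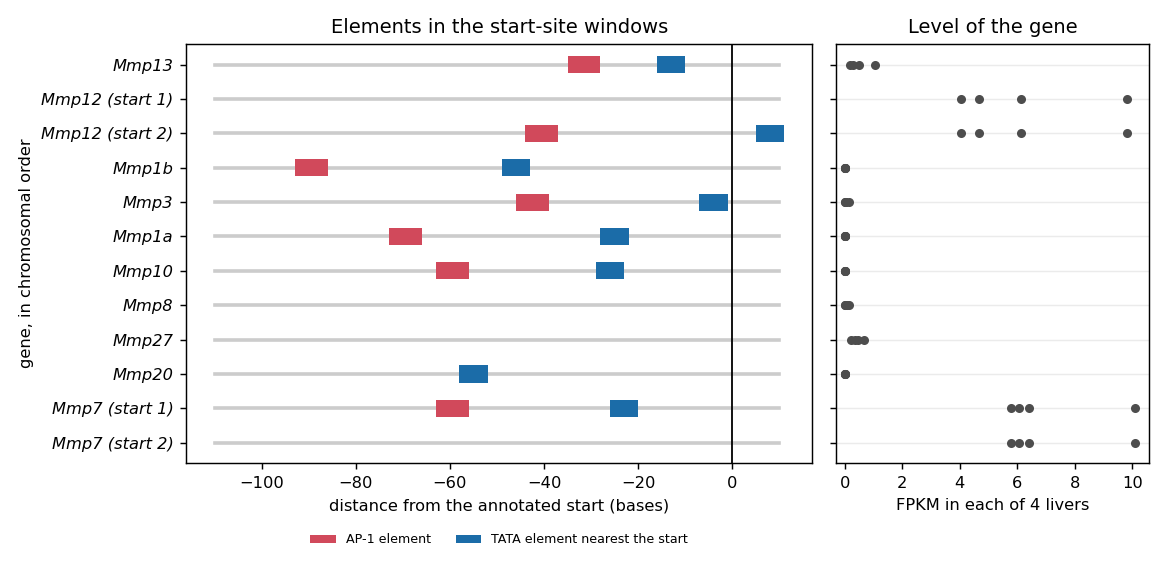
Left, positions of the AP-1 element and of the TATAAA nearest the start, in bases from the annotated start, for the 12 windows of the 10 genes of the Mmp cluster; right, FPKM of the same gene in each of 4 livers. The pair of elements is present both in Mmp7 and Mmp12 (4.06 to 10.1 FPKM) and in Mmp1a, Mmp1b and Mmp10, which were listed at 0.

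Among the remaining Mmp genes, Mmp23, a protease with an unusual domain order, was expressed at 1.50, 1.72, 2.04 and 1.40 FPKM. Mmp28 had a mean of 0.172 ± 0.0390 FPKM. Of the other membrane-anchored genes Mmp17 and Mmp25 were low, at 0.114 ± 0.0316 and 0.0418 ± 0.0231 FPKM. Mmp16 and Mmp24 were above 0 in 2 livers each and listed at 0 in the others. Mmp21 was above 0 in liver 2 only. The 7 expressed genes carried nearly all of the Mmp signal, with Mmp19 contributing 26.3 ± 1.78%, Mmp15 21.2 ± 3.75%, Mmp2 15.9 ± 3.22% and Mmp14 13.6 ± 0.804% of the summed Mmp level.

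The inhibitors were dominated by Timp2 and Timp3, the latter a Timp that binds to the matrix and also blocks Adam and Adamts proteases. Timp3 was at 13.4, 16.7, 13.1 and 11.1 FPKM in livers 1 to 4, a mean of 13.6 ± 2.32 FPKM. Liver 2 was the highest and liver 4 the lowest for Timp3. Timp1, the Timp most often followed as a marker of stellate cell activation, was far lower, at 2.10, 2.80, 1.60 and 1.61 FPKM. Livers 3 and 4 were alike for Timp1 and liver 2 was the highest, at about 36.9 fragments against 20.7 to 28.8 in the other livers. Timp4 was listed at 0 in livers 1, 2 and 4 and at 0.0827 FPKM in liver 3. Of the summed Timp level, Timp2 made up 49.95 ± 3.27%, Timp3 43.5 ± 2.25% and Timp1 6.47 ± 1.16%.

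Timp1, Timp3 and Timp4 lie inside introns of the synapsin genes Syn1, Syn3 and Syn2, and the table gives each Timp the same span as its host. Strand-specific counting is not stated in the sources used here. Syn1, at 0.0984 to 0.339 FPKM, was below Timp1 in every liver, and Syn3, at 0.271 to 0.445 FPKM, was below Timp3. Syn2, the host of Timp4, was at 0.0138 to 0.0785 FPKM. The span of Timp1 is also that of Araf, which had a mean of 31.6 FPKM. Loxl3 shares its span with Aup1, which had a mean of 96.3 FPKM, and with Htra2, at 9.38 FPKM. The span of Mmp19 is also that of Tmem198b, at 3.00 FPKM, and that of Mmp24 is also that of BC029722, at 17.1 FPKM. The values of Timp1, Loxl3, Mmp19 and Mmp24 are uncertain to the extent that reads of these neighbours were assigned to them, which was not tested. The span of Adamtsl5 (0.428 ± 0.151 FPKM) covers 49 genes of the table.

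The summed level of the 23 Mmp genes was 75.7, 74.5, 79.5 and 69.3 FPKM in livers 1 to 4, and that of the 4 Timp genes was 31.1, 35.7, 31.7 and 25.7 FPKM. The ratio of Timp to Mmp transcripts was 0.411, 0.479, 0.399 and 0.371, highest in liver 2 and lowest in liver 4. Summed Adamts levels were 15.1, 15.4, 13.0 and 11.1 FPKM, those of Adamtsl 10.7, 9.71, 11.0 and 6.71 FPKM, and those of the Lox class 8.49, 9.87, 8.89 and 5.77 FPKM. In all 5 classes liver 4 had the lowest sum.

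**Figure D3:**
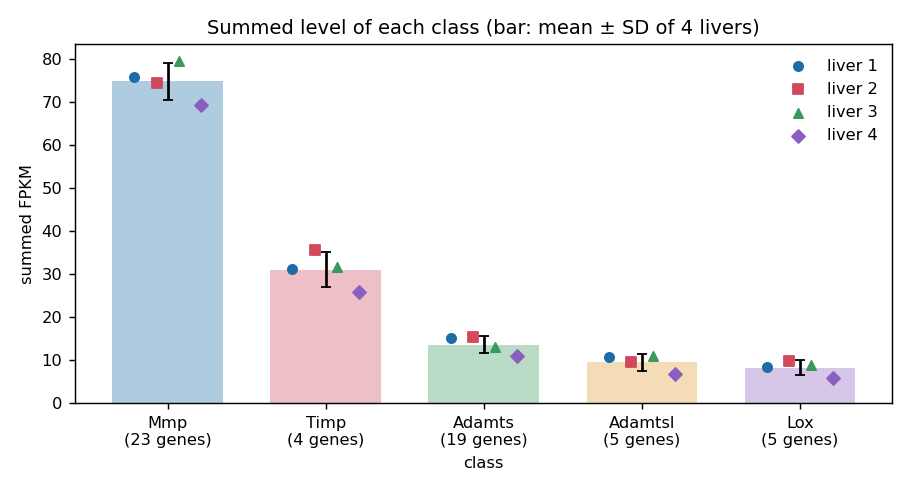
Summed FPKM of each class, with bars for the mean and error bars for the SD of 4 livers and a symbol for each liver. The Mmp class reached 69.3 to 79.5 FPKM, and liver 4 had the lowest symbol in all 5 classes.

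The Adamts genes were described by substrate. Adamts2 (chromosome 11, 50602085 to 50807573), which removes the amino-terminal propeptide of fibrillar procollagens, was at 3.27, 3.54, 3.20 and 2.52 FPKM. Its relatives Adamts14 and Adamts3 had means of 0.261 ± 0.0451 and 0.0535 ± 0.0310 FPKM, so Adamts2 was the most abundant of the 3. Adamts10, which binds fibrillin, was at 3.53, 3.26, 3.47 and 1.67 FPKM, above Adamts2 in livers 1 and 3 and below it in livers 2 and 4. Liver 4 was separated from the other 3 livers, with a gap of 0.885 of the range, past Dixon's limit. This was the only one of the 20 expressed members past it, where 5.46% of all expressed genes were. About 121 fragments stood behind the value of Adamts10 in liver 4 and 242.4 to 272.7 behind those of the others.

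Among the proteoglycan-cleaving enzymes Adamts1 was expressed, at 2.30, 2.30, 1.50 and 1.56 FPKM, with livers 1 and 2 above livers 3 and 4. Adamts5 was at 0.975, 1.38, 0.732 and 0.693 FPKM and Adamts9 at 0.927, 0.895, 0.579 and 0.557 FPKM. Adamts1, Adamts5 and Adamts9 thus each had their values in livers 1 and 2 above those in livers 3 and 4. Adamts15 differed, with 0.687 FPKM in liver 4 and 0.332 to 0.407 FPKM in the other livers. Adamts4 was at 0.272 FPKM in liver 2 and 0.0385 to 0.0740 FPKM elsewhere, about 22.0 fragments against 3.0 to 6.2.

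Adamts13, the protease that trims von Willebrand factor and is made in the liver by stellate cells, was at 1.37, 1.02, 1.17 and 0.999 FPKM, a mean of 1.14 ± 0.171 FPKM. Its SD of 0.11 on the log2(FPKM + 1) scale was below the median of all expressed genes. Adamts7, which cleaves cartilage oligomeric matrix protein, was at 1.55, 1.42, 1.15 and 1.63 FPKM, and Adamts12, with the same substrate, had a mean of 0.135 ± 0.0447 FPKM. Adamts7 was highest in liver 4. Adamts16 and Adamts6 were low, at 0.179 ± 0.0408 and 0.156 ± 0.0660 FPKM. Adamts17, Adamts18 and Adamts19 were above 0 in 3, 1 and 2 livers and listed at 0 in the others.

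Adamtsl2 (chromosome 2, 27079381 to 27108613), which binds a latent TGF-beta binding protein and restrains TGF-beta signalling, was the most abundant gene of the Adamts and Adamtsl classes. It was at 8.51, 7.35, 8.80 and 4.99 FPKM in livers 1 to 4, a mean of 7.41 ± 1.73 FPKM and 77.5 ± 2.85% of the summed Adamtsl level. Liver 4 was below the other livers, at about 320.6 fragments against 484.8 to 586.8. Adamtsl4 was at 1.34, 1.54, 1.22 and 1.01 FPKM. Adamtsl1 and Adamtsl3 had means of 0.309 ± 0.0937 and 0.0930 ± 0.00671 FPKM.

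Of the cross-linking enzymes, Loxl1 (chromosome 9, 58287723 to 58313212), which acts on elastin, was the leading transcript, at 4.92, 5.60, 5.50 and 3.05 FPKM. Loxl1 made up 57.4 ± 3.68% of the summed Lox level. Loxl2, which cross-links collagens of fibrils and basement membrane, was at 1.90, 2.04, 1.62 and 1.37 FPKM, and Loxl3 at 0.953, 1.34, 1.29 and 0.884 FPKM. All 3 expressed Loxl genes were highest in liver 2 and lowest in liver 4. Lox itself was low, at 0.449, 0.719, 0.286 and 0.227 FPKM, again with liver 2 highest and liver 4 lowest, and Loxl4 had a mean of 0.217 ± 0.0381 FPKM.

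Neighbours in the order of mean levels were compared by their ranges and within livers. The ranges over the 4 livers overlapped for 18 of the 19 pairs of neighbours among the expressed members. In 3 of these 18 pairs (Timp3 and Mmp2, Loxl1 and Adamts2, Adamts10 and Timp1) the gene of higher mean was nevertheless above its neighbour in all 4 livers. Only Mmp14 and Adamtsl2 did not overlap, so the 6 most abundant members (Mmp19, Mmp15, Timp2, Timp3, Mmp2 and Mmp14) stood above Adamtsl2 in every animal. This was no break in the order within each liver, since Mmp7 in liver 1 and Mmp12 in liver 4 were above Mmp14.

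Liver 4 had the lowest value for 15 of the 20 expressed members (75%), where 18.1% of all expressed genes were lowest in that liver. The exceptions were Mmp19, lowest in liver 2 (29.9% of all expressed genes), and Mmp12, Timp1, Adamts1 and Adamts7, lowest in liver 3 (31.4%). Highest in liver 4 were 2 members, Mmp12 and Adamts7, where the share over all expressed genes was 33.3%. Relative to the gene means, the median member was at -0.20 in liver 4 on the log2(FPKM + 1) scale, against 0.04 over all expressed genes. Liver 2 had the highest value for 9 of the 20 members, where the share over all expressed genes was 22.0%, and the median member was at 0.10 there, against -0.02 over all. Deviations are taken from the mean of the same 4 values, so these figures are not independent of each other. Members were matched by symbol and not by their values, though with earlier results of these data known. They share cell types of origin and are not replicates, and the 4 animals give no test of whether liver 4 differs.

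**Figure D4:**
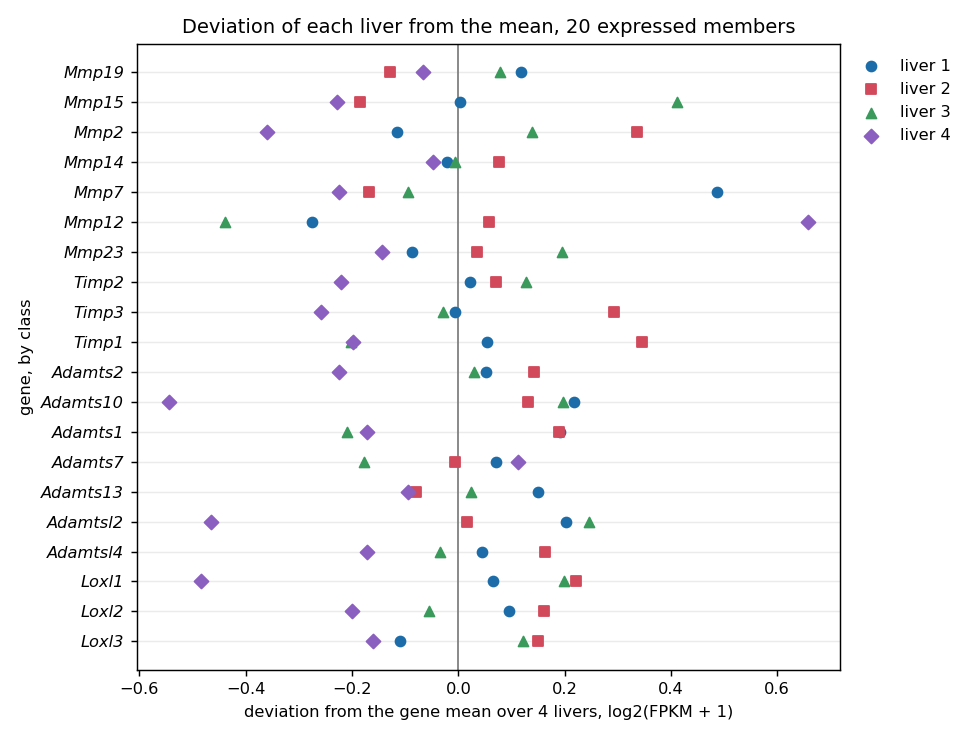
Deviation of each liver from the gene mean, on the log2(FPKM + 1) scale, for the 20 expressed members grouped by class, with a symbol for each liver. Liver 4 is the leftmost symbol for 15 genes and the rightmost for Mmp12 and Adamts7.

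Collagen genes, the main substrates of these enzymes, were set beside the members. Among 44 collagen genes, 17 were expressed, 9 of them lowest in liver 4 and 11 highest in liver 2, and their median deviations in these livers were -0.20 and 0.21. All 11 stellate cell markers were expressed, 6 of them lowest in liver 4 and 6 highest in liver 2. Their summed level was 242, 308, 214 and 238 FPKM in livers 1 to 4, of which Dcn made up 140, 194, 117 and 141 FPKM. Without Dcn the sum was 102, 115, 96.6 and 96.7 FPKM, nearly equal in livers 3 and 4. The 8 markers of portal fibroblasts and mesothelium summed to 14.1, 17.9, 15.9 and 13.6 FPKM, with none at 0 in all livers. Among other cell types 0 of 7 expressed endothelial, 0 of 8 macrophage, 1 of 8 hepatocyte and 1 of 5 cholangiocyte markers were lowest in liver 4. The same was true of 1 of 2 neutrophil, 2 of 3 lymphocyte, 1 of 2 smooth muscle and 1 of 2 portal fibroblast and mesothelial markers, lists with too few expressed genes to compare. Counted with those below 1 FPKM, 6 of 8 portal fibroblast and mesothelial markers were lowest in liver 4. So were 4 of 9 neutrophil, 4 of 10 lymphocyte and 2 of 5 smooth muscle markers, against 21.85% of genes above 0 in every liver. Highest in liver 2 were 5 of 7 expressed endothelial, 2 of 8 macrophage, 0 of 8 hepatocyte and 1 of 5 cholangiocyte markers. The share over all expressed genes was 22.0%. The part of stromal cell number, or of the smaller number of genes above 0 in liver 4, in the members' levels was not tested.

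**Figure D5:**
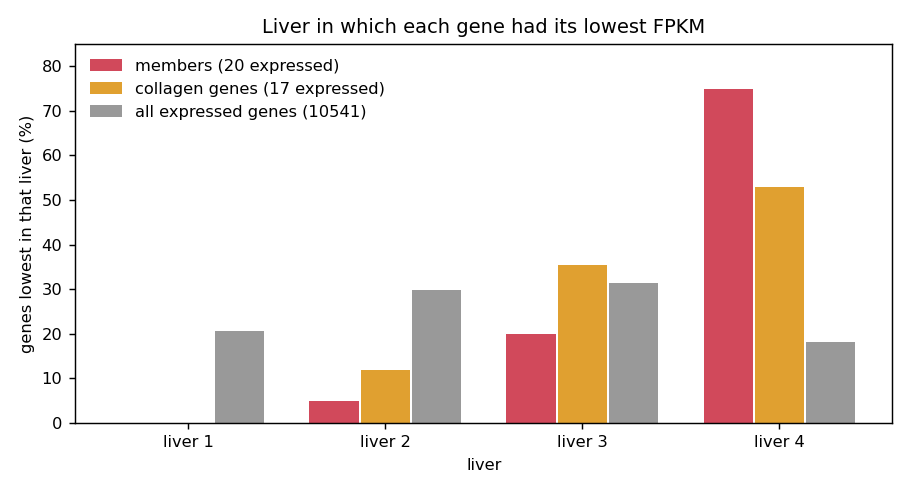
Percent of expressed genes whose lowest FPKM was in each liver, for the members (20 genes), the collagen genes (17 genes) and all expressed genes (10541 genes). In liver 4 the bars are at 75%, 52.9% and 18.1%.

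The spread between animals was not uniform over the levels. The median SD of the 20 expressed members was 0.19 on the log2(FPKM + 1) scale, against 0.16 over all expressed genes, and 10 of 20 members lay above the latter. Between 5 and 50 FPKM the median SD of 9 members was 0.29 and that of 5131 genes 0.16, with 6 of the 9 above it. Between 1 and 5 FPKM it was 0.16 for 11 members and 0.17 for 4003 genes. Mmp12 (0.48), Adamts10 (0.37), Loxl1 (0.33), Mmp7 (0.33) and Adamtsl2 (0.33) had the widest spread, and Mmp14 (0.05), Adamts13 (0.11) and Mmp19 (0.12) the narrowest. Without liver 4 the median SD of the members was 0.13, against 0.15 over all expressed genes.

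Genes that act with the members were taken from lists by function. Their counts stand beside shares over the whole table of 43.7% of genes expressed and, among expressed genes, 18.1% lowest in liver 4. All 9 activators and plasmin system genes were expressed. Plg, the precursor of plasmin, had 701 ± 63.4 FPKM, and the convertases Furin and Pcsk6, which remove the propeptide of membrane-anchored Mmp precursors among many targets, had 57.4 ± 6.29 and 37.8 ± 3.01 FPKM. Hgfac and Klkb1, plasma proteases of hepatocytes, had 104 ± 6.40 and 55.1 ± 4.45 FPKM. These transcripts were therefore more abundant than any Mmp. The remaining genes of the list had means of 1.11 to 1.50 FPKM, below the lowest of the expressed Mmp genes, Mmp23 at 1.66 FPKM. Only 1 of the 9 genes, the plasminogen activator Plat, was lowest in liver 4, and the median SD of the list was 0.13.

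Other inhibitors were expressed in 5 of 7 cases. Pzp, the broad protease trap of mouse plasma, had 947 ± 168 FPKM, the plasmin inhibitor Serpinf2 271 ± 21.1 FPKM, and Tfpi2, a matrix-bound inhibitor of plasmin and Mmp activity, 30.9 ± 3.11 FPKM. A2m was listed at no more than 0.05 FPKM, and Reck, the membrane-bound Mmp inhibitor, was below 1 FPKM in every liver. Serpine2, an inhibitor of serine proteases, was lowest in liver 4.

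Of 15 other matrix proteases 8 were expressed, led by Bmp1, which removes the carboxy-terminal propeptide of procollagens, at 32.5 ± 2.73 FPKM, and the membrane sheddase Adam9, at 21.3 ± 1.14 FPKM. Adam10, Htra1 and Adam17 had 7.13 ± 0.679, 6.11 ± 1.73 and 4.33 ± 0.179 FPKM. Bmp1 lay near the levels of the procollagen transcripts Col1a1 (38.0 ± 7.23 FPKM) and Col3a1 (33.3 ± 5.67 FPKM), whereas Adamts2, which acts at the other end of the procollagen, had 3.13 ± 0.433 FPKM. In this list 4 of 8 expressed genes were lowest in liver 4.

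Collagen maturation genes were expressed in 8 of 11 cases found in the table. The cross-linking transglutaminase Tgm2 had 42.0 ± 1.72 FPKM, the lysyl hydroxylase Plod1 24.7 ± 1.58 FPKM and the collagen chaperone Serpinh1 13.2 ± 2.57 FPKM. Tgm2 was 8.82 times the mean level of Loxl1. In this list 2 of 8 expressed genes, Serpinh1 and Pcolce, were lowest in liver 4. Of 12 substrates 9 were expressed, among them Fn1 at 187 ± 10.1 FPKM and Col4a1 at 11.4 ± 1.86 FPKM, with 3 lowest in liver 4. Of the 8 genes of collagen uptake and TGF-beta control 7 were expressed, led by the scavenger receptor Lrp1 at 46.1 ± 3.31 FPKM, which clears Mmp and Timp complexes, and by Tgfbr2 at 15.2 ± 1.29 FPKM, and 3 of the 7 were lowest in liver 4.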

How the data were processed

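Poly(A)-enriched libraries from 4 livers of a single group were sequenced by a company, per the labels' protocols. The submitters' processing notes name FastQC 0.10.1, Trim Galore 0.6.3, cutadapt, STAR 2.7.6a, Cufflinks 2.2.1 and mm10, with no role or order, and the annotation is not given in the sources used here. The deposited table states no unit. Its values were taken as FPKM made by the authors, from the Cufflinks-type identifiers and the values, which are not whole numbers. Columns were matched to samples through the descriptions, and 0 columns were left unmatched. Starts were raised by 1, since 52.0% of 22565 symbols then equalled the RefSeq start in GRCm38 (3.00% as deposited).

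Members were matched by symbol. Means and SDs were computed over 4 livers, and spread on log2(FPKM + 1), where differences of low genes look smaller. With 1 group there is no test and no p-value. Depth was estimated from single-transcript genes longer than 800 bases (3436 candidates), as the median product of FPKM and length less 200 bases among the 82 to 142 products per liver between 25 and 75. Below 25 lay 3 to 6 products per liver, and windows from 10 to 80 and from 30 to 90, added after seeing the data, gave 17.3 to 20.0 M fragments. The window bears on the estimate, so the depth, and the fragments per gene computed from it with the longest coding transcript of GENCODE vM21, are approximate. Counting error alone limits genes of few fragments. The gap ratio was tested on simulated data. Python 3.11.15, numpy 2.4.6 and pandas 2.3.3 were used.

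The members and lists were chosen with earlier results of these data known. All members are accounted for: those with a mean of at least 1 FPKM by their value in each liver, the others by value, mean or count, and of each list at most 5 genes by highest mean, besides Plat, A2m, Reck, single markers and genes that share a span with a member, named after their values were seen. The alternatives were other pseudocounts, minimum levels, scalings and each liver left out.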

Additional observations from a re-analysis of the deposited data

Results flagged for a closer look

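For each member the distance from the most extreme liver to its nearest neighbour was divided by the range over the 4 livers, on the log2(FPKM + 1) scale, and compared with Dixon's 95% critical value for 4 samples. Chance marks about 1 in 20 groups. Among expressed members Adamts10 exceeded it, with a ratio of 0.885 and liver 4 below the other 3. Among members below 1 FPKM, Adamts4 had a ratio of 0.834, with liver 2 above the others at about 22 fragments. Timp4 (liver 3), Mmp21 (liver 2), Mmp20 (liver 1) and Adamts18 (liver 1) each had a ratio of 1, because each was listed at 0 in the other 3 livers, and their single values correspond to about 8.6, 2.4, 1.0 and 1.2 fragments.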

How the results depend on the processing

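Of 105 values recomputed under the alternatives 83 stayed close to the reported ones and 22 moved. Means and sums with a liver left out are not among them, since a mean of 4 cannot move by 1 SD that way. Means and sums under other scalings are among them, and none of these moved. The scaling factors lay between 0.96 and 1.077, so a mean of 4 livers had little room to move by 1 SD. The 83 therefore overstate how stable the results are. All 22 that moved were counts or median SDs. The number of expressed members was 38 with a minimum of 0.1 FPKM and 9 with a minimum of 5 FPKM, where 57.2% and 27.1% of all genes were expressed. The median SD was 0.26 with a pseudocount of 0.1, 0.11 with a pseudocount of 5, 0.16 with a minimum of 0.1 FPKM, 0.29 with a minimum of 5 FPKM, 0.12 without a filter and 0.23 with upper-quartile scaling, and from 0.13 to 0.19 when a liver was left out, lowest without liver 4. With a pseudocount of 5 it equalled that of all expressed genes (0.11), and without liver 4 it was below theirs (0.13 against 0.15). With a minimum of 0.1 FPKM the members and all genes kept were nearly equal (0.158 against 0.156). The members stayed the wider at 0.26 against 0.19 with a pseudocount of 0.1, 0.29 against 0.16 with a minimum of 5 FPKM, 0.12 against 0.09 without a filter, 0.23 against 0.16 with upper-quartile scaling, and in each fit without liver 1, 2 or 3.

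The number of members lowest in liver 4 was 23 of 38 with a minimum of 0.1 FPKM, 7 of 9 with a minimum of 5 FPKM, and 24 of 41 among members above 0 in every liver, an alternative chosen after seeing the data, against 21.9%, 11.35% and 21.85% of all genes kept. It was 16 of 20 with median-ratio and 18 of 20 with upper-quartile scaling, where 21.8% and 33.8% of all expressed genes were lowest in liver 4. Upper-quartile scaling lowers all genes of liver 4 by 0.11 on the log2 scale. Without liver 1, 2 or 3, also added later, it ranged from 15 to 18, at 15 of 20, 16 of 20 and 18 of 21, against 22.75%, 27.0% and 25.1% of all expressed genes. The number highest in liver 2 was 18 of 38 with a minimum of 0.1 FPKM, 3 of 9 with 5 FPKM and 20 of 41 among members above 0 in every liver, against 23.94%, 19.76% and 23.96% of all genes kept. The number of expressed members past Dixon's value was 2 on the FPKM scale, where Mmp7 joined Adamts10, 2 with upper-quartile scaling, where Loxl1 joined it, and 0 with a minimum of 5 FPKM, which removes Adamts10, where 5.635%, 5.309% and 5.414% of all genes kept were past it. With that minimum 5 activators, 4 other proteases, 5 maturation genes and 4 genes of uptake and TGF-beta control were expressed. Other minimum levels change which genes are kept. The cause of the changes with another pseudocount, scale or scaling and without liver 4 was not tested. No paired analysis was possible because there is only 1 group.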
